A study of Drosophila melanogaster with 4 samples.

Results

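The bithorax complex is the cluster of 3 Hox genes, Ubx, abd-A and Abd-B, that gives the segments of the posterior thorax and the abdomen of Drosophila melanogaster their identity. The complex was taken as the stretch of chromosome arm 3R from 12480000 to 12810000 on FlyBase r5, which is 330001 bp, or 1.18% of the arm. Its members were 3 genes placed by approximate spans, Ubx from 12482000 to 12560000, abd-A from 12633000 to 12656000 and Abd-B from 12753000 to 12798000. Enriched regions, called clusters here, belonged to the complex when they overlapped that stretch by at least 1 bp. ChIP replicate 1 had 11 such clusters of 4370 in its list, ChIP replicate 2 had 7 of 4910, and the list deposited for the replicates together, called the combined list, had 40 of 7536.

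The libraries came from chromatin of whole wild-type Oregon-R embryos aged 14 to 16 h, fixed in 1.8% formaldehyde, per the labels. The series comprised 2 libraries precipitated for acetylated lysine 18 of histone H3 (H3K18ac, with an antibody lot described as new) and 2 input libraries of the same chromatin source, numbered 1 and 2 in each group. Each ChIP list had been made against the input of the same number, so the inputs enter only through the lists. Strain, genotype and stage were the same in all 4 libraries, and flies were kept in population cages. The labels do not say whether the replicates were separate embryo collections; differences between them may therefore be technical. The lists carry no read counts, so the depth is unknown, and a place without a cluster is one where no enrichment was listed, not one shown to lack H3K18ac. In whole embryos, fewer cells carrying the mark and less of the mark per cell cannot be told apart.

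Hox genes of the complex lie along the chromosome in the order in which they act along the body. Ubx specifies the third thoracic segment and the first abdominal segment, abd-A the more anterior abdominal segments, and Abd-B the posterior abdomen and genitalia. All 3 are transcribed toward lower coordinates, so their promoters lie at or toward the high-coordinate end of each span, and large regulatory regions (abx/bx, bxd/pbx and the iab regions) occupy introns and the DNA between the genes. In each segment some of these regions are active, while Polycomb group proteins keep others silent under trimethylated lysine 27 of histone H3. H3K18ac is an acetylation that the CBP protein Nejire places in flies and that accompanies active promoters and enhancers. In the gene table of release 6, a later build used only for names and order, each of the 3 symbols matched 1 gene on 3R. The lengths of the approximate spans differed from the lengths in that table by 197 bp for Ubx, 165 bp for abd-A and -24 bp for Abd-B, and their r5 positions were not checked against an r5 annotation. That table lists 2 protein-coding genes (CG31275 and Glut3) and 4 long non-coding RNAs, lncRNA:bxd among them, between Ubx and abd-A. Between abd-A and Abd-B it lists MSAmiP, the non-coding RNAs lncRNA:iab8 and lncRNA:iab4 among 3, and the microRNAs mir-iab-4 and mir-iab-8.

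The 3 genes differed in where clusters were listed. Ubx and abd-A held clusters in every list, and Abd-B held none in any of them. By share of its span, abd-A was the most covered of the genes, with 24.1% under clusters in replicate 1 and 15.7% in replicate 2 (19.9% ± 5.94, SD, n = 2). Clusters took up 8.00% of Ubx in replicate 1 and 5.00% of it in replicate 2 (6.50% ± 2.12, SD, n = 2), and Abd-B to 0% in both. In bases, the longer Ubx had more under clusters than abd-A in each list. The values were 6238 against 5537 bp in replicate 1, 3903 against 3605 bp in replicate 2 and 18010 against 14676 bp in the combined list. The ranges of the shares of the 3 genes did not overlap, and 2 replicates are too few for a test of the difference. How often other stretches of 3R of these 3 lengths differ in this way was not counted.

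As a background, windows of the same length as each span were laid along 3R at steps of 10 kb, leaving out those that touch the complex. A cluster somewhere in a stretch as long as Ubx is common: 72.7% of such windows held at least 1 cluster in replicate 1, 80.0% in replicate 2 and 87.3% in the combined list. At the length of abd-A these shares were 44.5%, 49.3% and 64.2% in the same order of lists. At the length of Abd-B they were 59.2%, 65.8% and 77.3%, so that windows as empty as Abd-B made up 40.8% of those in replicate 1, 34.2% in replicate 2 and 22.7% in the combined list. A stretch of that length was empty in all 3 lists in 621 of 2750 windows, or 22.6%. The presence of clusters in Ubx and abd-A and their lack in Abd-B are therefore each a common state on this arm.

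**Figure D1:**
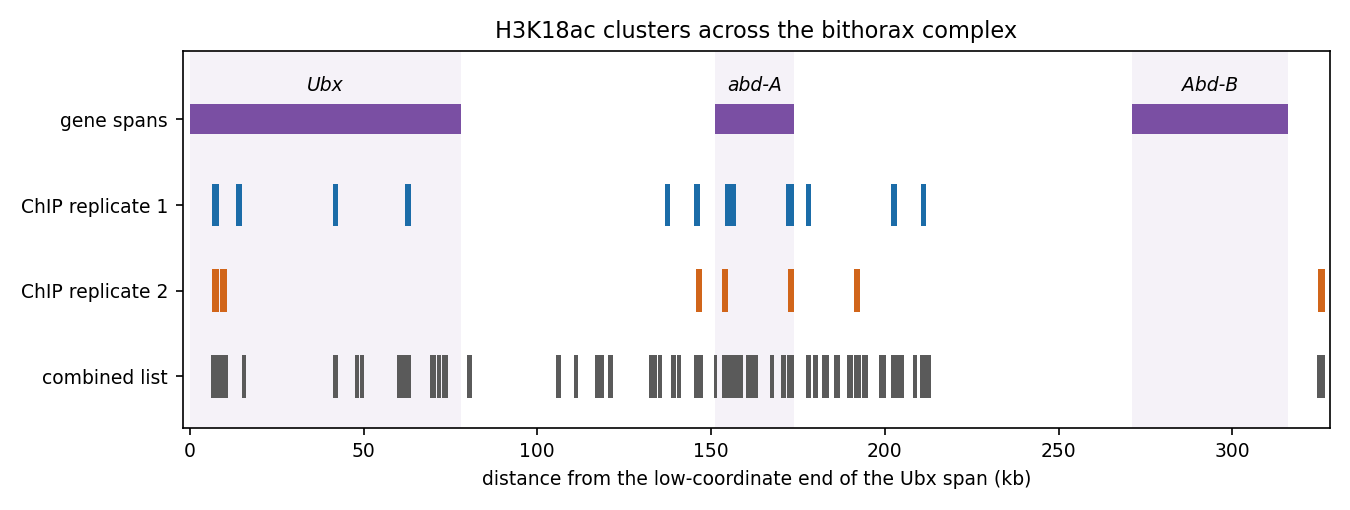
Clusters of the 3 lists (bars, 1 row per list) and the approximate gene spans (purple, shaded down the plot) across the bithorax complex, against the distance in kb from the low-coordinate end of the Ubx span. Replicate 1 has 11 clusters, replicate 2 has 7 and the combined list 40, and no list has a cluster in Abd-B.

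Ubx encodes the homeodomain protein Ultrabithorax, which among other roles sets haltere against wing. Its 78001-bp span held 4 clusters in replicate 1 and 2 in replicate 2. In replicate 1 these ran from 12488545 to 12490350, from 12495385 to 12496945, from 12523357 to 12524675 and from 12544070 to 12545621, each between 1319 and 1806 bp long. In replicate 2 they ran from 12488503 to 12490503 and from 12490831 to 12492732. A lone site was therefore common to both replicates, near the low-coordinate end where transcription ends, and there the edges differed by 42 bp at the start and 153 bp at the end. That site ranked 3859 of 4370 by the authors' score in replicate 1, where the scores of 11.7% of clusters lay below it, and 2844 of 4910 in replicate 2, where 42.1% did.

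No cluster lay in the 5 kb at the promoter end of Ubx in either replicate. The nearest cluster to that end was 14.4 kb away in replicate 1 and 67.3 kb away in replicate 2, both inside the gene. The combined list covered 26.4% of those 5 kb, with a cluster from 12554452 to 12556322 that overlapped neither replicate and that was 1871 bp long. A further combined cluster, from 12561822 to 12563072, began 1.82 kb beyond the end of the span; it is named after its values were seen. Since the span is approximate, these distances are too. Against same-length windows, the covered share of Ubx stood at percentile 51.7 in replicate 1 and 39.5 in replicate 2, where the window medians were 7.62% and 8.52%. A percentile is the share of windows with less covered length, with tied windows counted in equal parts above and below. The coverage of Ubx was thus near the middle of 3R. In the combined list 10 clusters covered 23.1% of Ubx, at percentile 59.0, against a window median of 17.6%. By number of clusters Ubx stood there at percentile 91.3.

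abd-A encodes the homeodomain protein Abdominal-A, which represses limb formation in the abdomen together with Ubx. Its 23001-bp span held 2 clusters in each replicate, and both pairs overlapped. The first lay toward the low-coordinate end, from 12636050 to 12639302 in replicate 1 and from 12635167 to 12636892 in replicate 2, with 843 bp in common. The second lay at the promoter end, from 12653619 to 12655902 in replicate 1 and from 12654058 to 12655936 in replicate 2, with 1845 bp in common. At its high-coordinate edge this second site stopped 98 bp short of the end of the span in replicate 1, 64 bp short in replicate 2 and 14 bp short in the combined list. The approximate span was 165 bp longer than the gene in release 6. Whether the site ended inside the gene or ran past its end therefore cannot be told. Of the 5 kb at the promoter end of abd-A, 45.7% was covered in replicate 1 and 37.6% in replicate 2, against 0% in both replicates at the promoter ends of Ubx and of Abd-B. No windows of 5 kb were laid along 3R. Of the longer windows of 12000 bp, 66.3% in replicate 1 and 63.0% in replicate 2 held no cluster, so 0% is common in a short stretch.

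The promoter site of abd-A had the highest score of the complex in replicate 1 and the lowest in replicate 2. In replicate 1 it scored 0.70 and ranked 1029 of 4370, and in replicate 2 it scored 0.41 and ranked 4651 of 4910. The scores have no stated unit and are used here only as ranks within a list: in replicate 1 this site outscored 76.5% of all clusters, and in replicate 2 it outscored 5.22% of them. In the combined list the same place, from 12653778 to 12655986, had the highest score of the 40 clusters of the complex and ranked 1523 of 7536. The low-coordinate site ranked 2996 of 4370 in replicate 1 and 2625 of 4910 in replicate 2. Among windows of the same length, the covered share of abd-A stood at percentile 79.5 in replicate 1 and 71.3 in replicate 2, where the median window had no covered base. In the combined list 8 clusters covered 63.8% of the gene, at percentile 87.6, where the median window was covered to 10.4%, and by number of clusters it stood at percentile 99.8.

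Abd-B encodes the homeodomain protein Abdominal-B and has several promoters along its span. Its 45001 bp held no cluster in replicate 1, replicate 2 or the combined list. The nearest cluster to its high-coordinate end began 80.6 kb away in replicate 1, 8.55 kb away in replicate 2 and 8.31 kb away in the combined list. The gene lay within a stretch from 12695311 to 12806309, of 110999 bp, that was empty in all 3 lists. That stretch ran 57.7 kb below the gene, into the DNA between abd-A and Abd-B, and 8.31 kb above it. It ranked 34th by length among the 1611 stretches of 3R that had no cluster in any list, so longer empty stretches exist on the arm.

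The DNA between the genes held 1 site common to both replicates. Between Ubx and abd-A, replicate 1 had clusters from 12618862 to 12620186 and from 12627165 to 12628926, and replicate 2 had 1 from 12627804 to 12629418. The last 2 of these overlapped by 1123 bp just below the abd-A span, and that site had the highest score of the complex in replicate 2, with rank 1314 of 4910. In replicate 1 it ranked 3042 of 4370. Between abd-A and Abd-B, replicate 1 had clusters from 12659365 to 12660879, from 12683728 to 12685402 and from 12692279 to 12693924, while replicate 2 had 1 from 12673158 to 12674723. None of these 4 overlapped a cluster of the other replicate. Beyond Abd-B, replicate 2 had a cluster from 12806547 to 12808520, and the nearest cluster of replicate 1 lay 70077 bp from it.

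By number of clusters these stretches were at the middle of 3R in replicate 1, with 2 clusters against a window median of 2 between Ubx and abd-A and 3 against 3 between abd-A and Abd-B. In replicate 2 they held 1 each, against window medians of 2 and 3. The covered share of these stretches was below the median window in both replicates. It was 3.22% ± 1.43 (SD, n = 2) between Ubx and abd-A, against a window median of 8.02% averaged over the replicates. Between abd-A and Abd-B it was 3.30% ± 2.38 (SD, n = 2), against 8.90%. The percentiles were 39.7 in replicate 1 and 28.6 in replicate 2 for the DNA between Ubx and abd-A, and 38.7 and 20.4 for that between abd-A and Abd-B. In the combined list both stretches were above the median window. Between Ubx and abd-A the combined share was 23.5% against 17.1% (percentile 59.9, and 95.2 by number of clusters). Between abd-A and Abd-B it was 22.5% against 18.2% (percentile 56.2, and 88.7 by number).

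**Figure D2:**
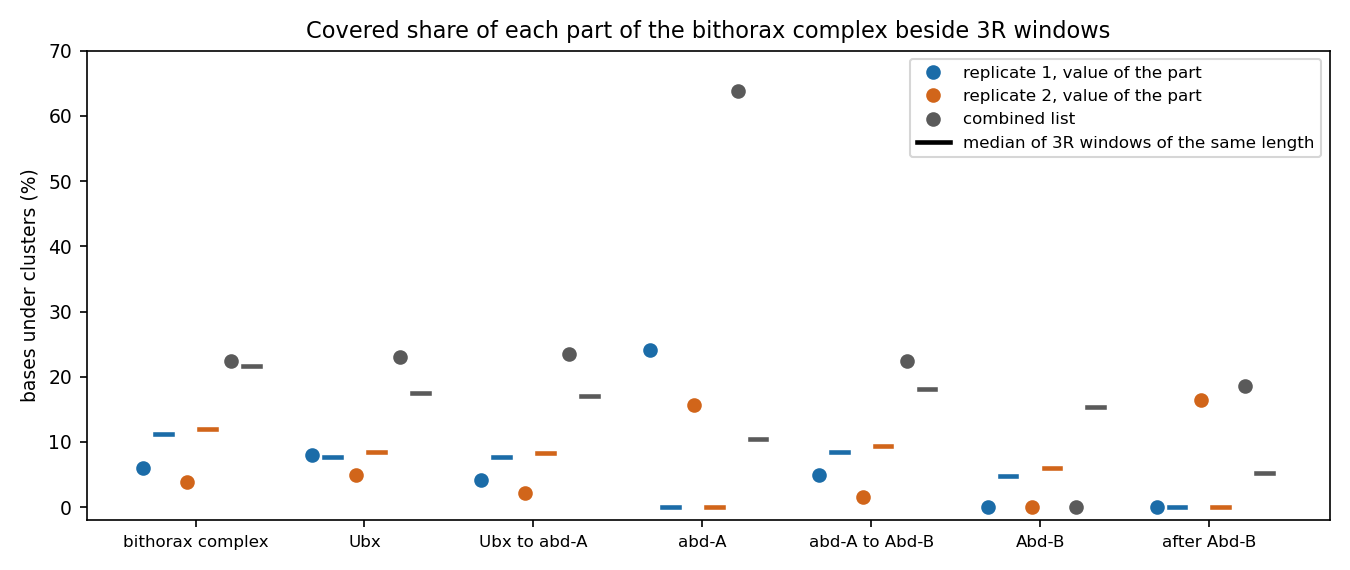
Share of bases under clusters (%, vertical axis) in the whole complex, in each gene span and in the DNA between and after them (horizontal axis). Points are the values of the part in each list, and the short lines to their right are the medians of 3R windows of the same length. abd-A lies above its lines in all 3 lists, at 24.1%, 15.7% and 63.8%, with its replicate lines at 0. Other parts lie above their lines in some lists, such as Ubx in replicate 1 and the combined list. Abd-B lies at 0 in all 3 lists.

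Over the whole complex, clusters covered 19698 bp in replicate 1 and 12663 bp in replicate 2. This was 5.97% and 3.84% of its length (4.90% ± 1.51, SD, n = 2), against 13.7% of the rest of 3R in each replicate. Median windows of the same length were covered to 11.2% in replicate 1 and 12.01% in replicate 2, and the complex stood at percentile 25.1 and 13.5 of 2692 windows (19.3 ± 8.17, SD, n = 2). Such windows overlap one another and vary widely, so a value below the median is a description with no test. By number of clusters the complex was closer to the middle in replicate 1, at percentile 55.2, and stood at 23.1 in replicate 2. It held 33.3 clusters per Mb in replicate 1 and 21.2 in replicate 2, against 32.9 and 38.0 in the rest of 3R.

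**Figure D3:**
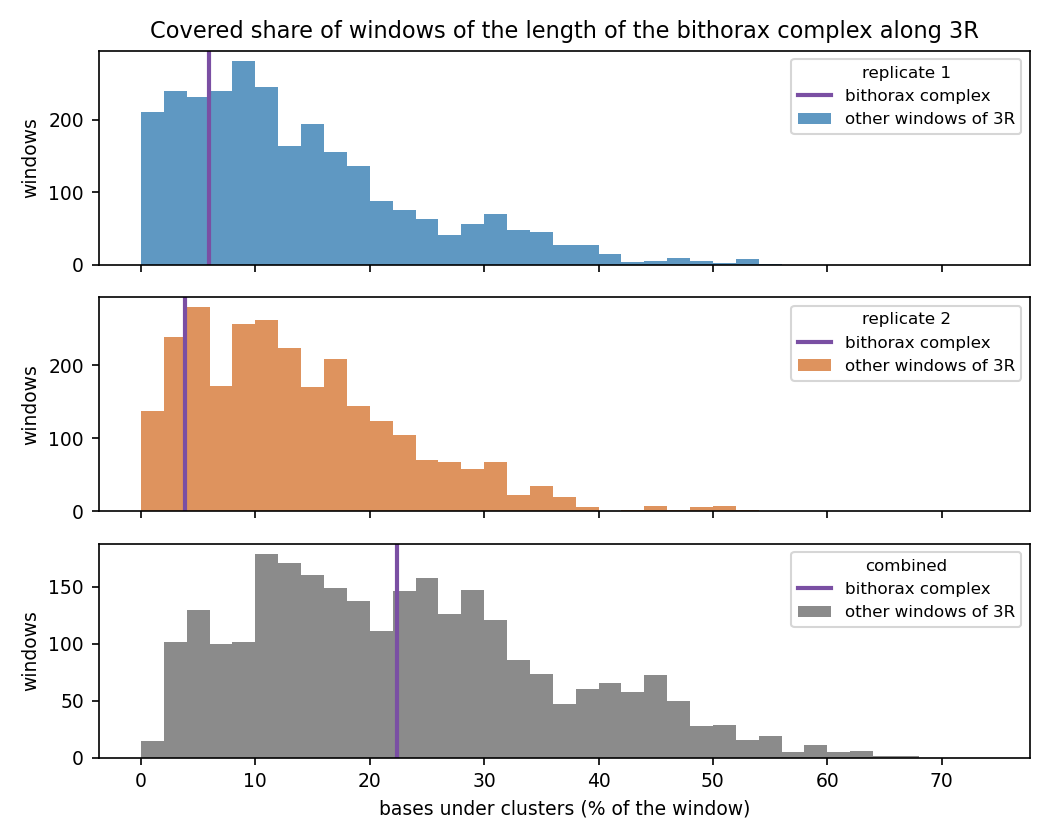
Number of windows (vertical axis) by share of bases under clusters (%, horizontal axis) for 2692 overlapping windows of 3R of the length of the complex, with 1 panel per list. The vertical line marks the complex, at 5.97% in replicate 1, 3.84% in replicate 2 and 22.4% in the combined list.

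Clusters of the complex were shorter at the median than those of the rest of 3R in both replicates. Their lengths ran from 1319 to 3253 bp with a median of 1646 bp in replicate 1, against a median of 2162 bp in the rest of 3R. In replicate 2 they ran from 1566 to 2001 bp with a median of 1879 bp, against 2131 bp. No cluster of the complex reached 4 kb in either replicate, whereas 227 of 907 clusters (25.03%) in the rest of 3R did in replicate 1 and 251 of 1049 (23.9%) in replicate 2. Windows of this length without a cluster of 4 kb made up 15.2% of those in replicate 1 and 16.3% in replicate 2. The median score was 0.55 in the complex against 0.60 in the rest of 3R in replicate 1, and 0.55 against 0.56 in replicate 2, where 4 of the 7 clusters outscored between 42.1% and 46.5% of their list. Scores at or above the median of the list were held by 2 of the 11 clusters in replicate 1, at the abd-A promoter end and from 12495385 to 12496945 in Ubx, and by 1 of the 7 in replicate 2, just below abd-A.

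**Figure D4:**
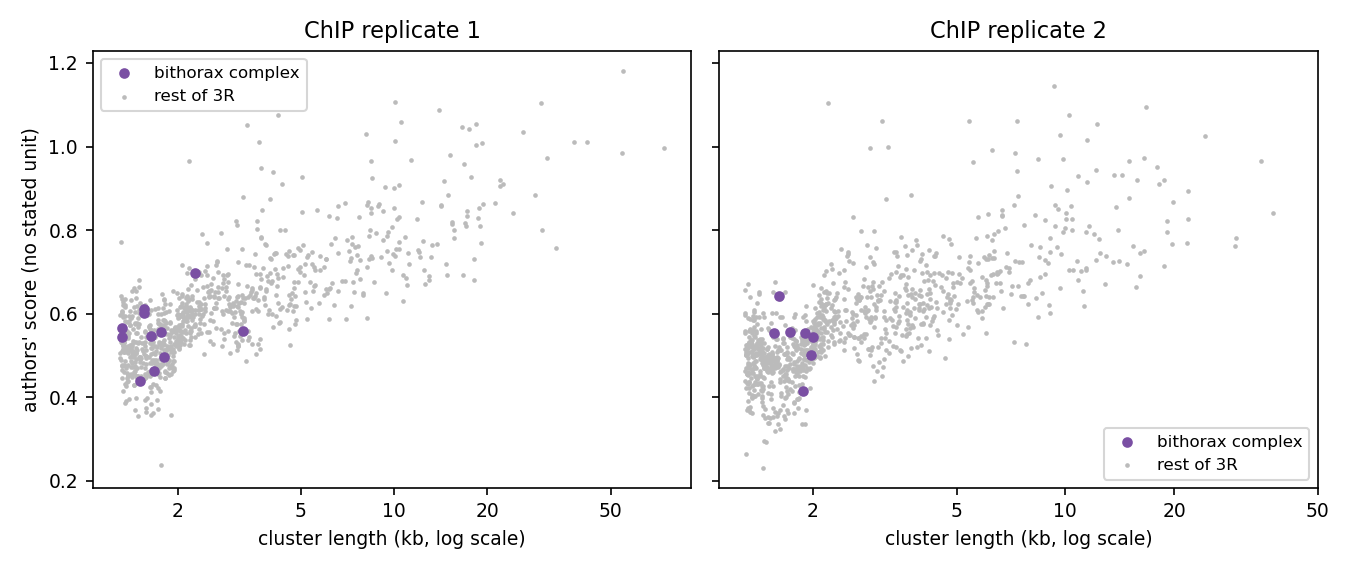
The authors' score (no stated unit, vertical axis) against cluster length (kb, log scale) for clusters of 3R, in replicate 1 (left) and replicate 2 (right), with clusters of the complex in purple and the rest of the arm in grey. The complex holds no cluster of 4 kb or more, and its highest scores are 0.70 in replicate 1 and 0.64 in replicate 2.

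The replicates overlapped at 4 sites of the complex: 1 in Ubx, 1 between Ubx and abd-A, and 2 in abd-A. These took up 4 of 11 clusters of replicate 1 (36.4%, 95% exact Clopper-Pearson interval 10.9 to 69.2) and 4 of 7 of replicate 2 (57.1%, 18.4 to 90.1). In the rest of 3R, 679 of 907 clusters of replicate 1 (74.9%, 71.9 to 77.7) and 758 of 1049 of replicate 2 (72.3%, 69.4 to 74.95) overlapped the other list. These intervals allow for counting error alone, as if clusters were independent of each other. In bases, the replicates had 5617 bp in common of 26744 bp covered by either, a Jaccard index of 21.0%. The median window had an index of 57.9%, and the complex stood at percentile 4.27 of the 2691 windows with a cluster. Clusters of the complex were also shorter than those of the rest of the arm, and the part of length in this difference was not tested. By gene, the index was 21.7% in Ubx and 41.6% in abd-A.

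The combined list gave another picture of the complex. Its 40 clusters covered 73864 bp, or 22.4% of the complex, against 23.3% of the rest of 3R, at percentile 51.3 of the windows. By number of clusters the complex stood at percentile 97.6, and 63 of 2692 windows (2.34%) held more. The clusters were short, with a median of 1607 bp against 1926 bp in the rest of the arm, and 1 of them reached 4 kb, against 391 of 1570 (24.9%) elsewhere on 3R. From the start of the complex to 12695310, 39 combined clusters covered 33.3% of 215.3 kb. This cut was placed at the last combined cluster before the longest empty stretch, so a share above that of the whole complex follows from the choice. No windows of that length were laid along 3R. The remaining combined cluster, from 12806310 to 12808544, lay beyond the empty stretch around Abd-B.

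Most of this coverage lay outside the clusters of both replicates. Of the 40 combined clusters, 4 overlapped both replicates, 7 replicate 1 alone, 2 replicate 2 alone and 27 neither (67.5%, 95% exact interval 50.9 to 81.4). In the rest of 3R 699 of 1570 combined clusters (44.5%, 42.0 to 47.0) overlapped neither. These intervals too allow for counting error alone, as if clusters were independent of each other. The combined clusters of the complex were also shorter than those of the rest of the arm, and the part of length in this difference was not tested. The 27 clusters that overlapped neither replicate covered 42423 bp. Counted in bases, and so with the overhangs of the other combined clusters, the combined list covered 50519 bp that neither replicate covered, or 15.3% of the complex, at percentile 97.6 of the windows, whose median was 6.00%. For the parts, the percentile of these bases was 99.1 for abd-A, 96.1 for the DNA between Ubx and abd-A, 92.8 for that between abd-A and Abd-B and 88.7 for Ubx. As a share of the combined coverage of each part, abd-A was instead the lowest of these, at 57.9% (percentile 71.8). That share was 63.1% for Ubx (84.7), 71.0% between abd-A and Abd-B (90.8) and 87.0% between Ubx and abd-A (91.4). Of the 27 clusters, 6 overlapped Ubx, 10 the DNA between Ubx and abd-A, 5 abd-A and 7 the DNA between abd-A and Abd-B, with 1 counted on both sides of the low end of abd-A, and Abd-B had none. No source used here says how the authors combined the replicates, so what the additional combined clusters rest on cannot be told from the lists.

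The 4 combined clusters that overlapped both replicates had the 4 highest scores of the complex. The first was the abd-A promoter site given above, followed by the site from 12627198 to 12629658 (2461 bp, rank 1684 of 7536) and that from 12635054 to 12637690 (2637 bp, rank 1838). The fourth, from 12488218 to 12493022 in Ubx, was also the longest combined cluster of the complex at 4805 bp, and it joined both clusters of replicate 2 there. Next in length were the clusters from 12683728 to 12687422 (3695 bp) between abd-A and Abd-B and from 12642030 to 12645454 (3425 bp) inside abd-A. The cluster inside abd-A overlapped neither replicate and ranked 6325 of 7536. A combined cluster from 12652210 to 12653458, also without a replicate counterpart, lay within 5 kb of the promoter end of abd-A. Since the combined list rests on the same libraries, its overlap with the replicates does not count as separate evidence.

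The longest empty stretches of the complex differed between the replicates in Ubx, while each list had a long one around Abd-B. In replicate 1 the longest ran from 12693925 to 12878596 (184672 bp, rank 26 of 918 on 3R) and held Abd-B, and the next cluster began 68597 bp past the complex. The next ran from 12545622 to 12618861 (73240 bp, rank 95), over the promoter end of Ubx, and from 12457039 to 12488544 (31506 bp, rank 188), over the low end of Ubx. In replicate 2 the longest ran from 12492733 to 12627803 (135071 bp, rank 39 of 1057), over most of Ubx and the DNA beyond it. It was followed by that from 12674724 to 12806546 (131823 bp, rank 42) around Abd-B and that from 12458488 to 12488502 (30015 bp, rank 223). In the combined list the stretch around Abd-B of 110999 bp ranked 34 of 1611, followed by those from 12458437 to 12488217 (29781 bp, rank 182) and from 12498309 to 12523223 (24915 bp, rank 222). The low end of Ubx was thus empty in each list, with the first cluster between 6.22 and 6.55 kb inside the span.

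The complex lay between flanks of unequal coverage, and was itself covered to 5.97% in replicate 1 and 3.84% in replicate 2. The stretch of equal length at lower coordinates, on the Ubx side, had 16.3% of its bases under clusters in replicate 1 and 17.8% in replicate 2, at percentile 67.8 and 71.4. The stretch at higher coordinates, on the Abd-B side, was covered to 6.00% and 6.32%, at percentile 25.2 in each. The value of the complex was below both flanks in replicate 2, and in replicate 1 it was below the lower flank and close to the higher one. On the Ubx side the last cluster before the complex ended at 12457038 in replicate 1 and at 12458487 in replicate 2. It was 5771 and 6131 bp long, longer than any cluster inside the complex in the same list. In the combined list the complex, at 22.4%, lay between its flanks, at 33.8% on the Ubx side and 11.6% on the Abd-B side.

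**Figure D5:**
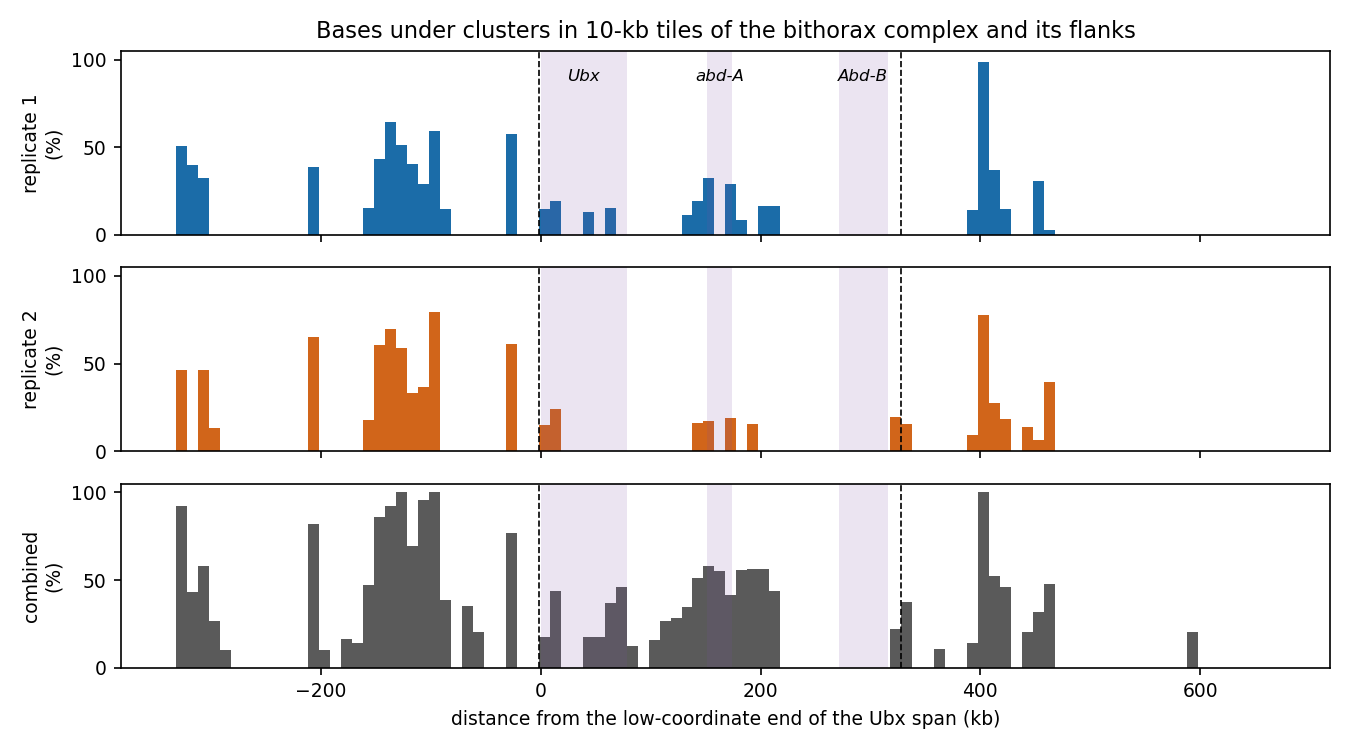
Share of bases under clusters (%, vertical axis) in tiles of 10 kb, against the distance in kb from the low-coordinate end of the Ubx span, with 1 panel per list. Dashed lines bound the complex and shading marks the gene spans; no tile within Abd-B has a covered base in any list.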

How the data were processed

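H3K18ac ChIP-seq of wild-type embryos gave 1 list of enriched regions per ChIP library and 1 combined list. The build is FlyBase r5, per the file headers. The tools include Bowtie 0.12.7, per the submitters' processing notes; no source used here names the region caller, its threshold or the way replicates were combined. Each region carries a score, the authors' deposited value with no stated scale, which was used only to rank regions within a list. Read depth is unknown, so no interval that needs reads is given.

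Lists were read in Python 3.11.15 with numpy 2.4.6 and scipy 1.17.1 and plotted with matplotlib 3.10.9. Overlap meant at least 1 bp. Covered bases were clipped to each part. Windows of the same length started every 10 kb along 3R, without those touching the complex. Empty stretches and cluster edges were taken unclipped. The interval functions were tested on simulated lists (20 of 20 recovered). Values are given per replicate with mean and SD over 2 replicates. The design has no comparison that a test over 2 replicates could decide, so no p-value is given.

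The members, spans and descriptions were chosen with earlier results of these data known. The replicate clusters were all named; of the combined clusters, the 3 highest-scoring, the 3 longest and those in the 5 kb at a promoter end were named, with the 3 longest empty stretches per list. The combined clusters just beyond the promoter end of Ubx and beyond Abd-B, and those flanking a replicate 1 cluster, fall outside this rule and were named after their values were seen. The combined bases outside both replicates, stretches empty in all lists, windows without clusters of 4 kb, distances to the flanks and neighbouring genes were added after the lists had been seen. So was the coverage of the combined list up to the empty stretch around Abd-B. Alternatives were clusters at or above the median score of their list, merging within 1 kb, spans widened by 2 kb, other window placements, the number of clusters, the combined list and leaving out each replicate.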

Additional observations from a re-analysis of the deposited data

How the results depend on the processing

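Of 31 alternative values, all planned, 23 stayed the same and 8 moved. A value stayed the same if it lay within 1 SD of the replicates, or for the overlap of replicates within its 95% exact interval. None was counted as reversed, but shares of bases or clusters cannot fall below 0 and so could not reverse. When clusters below the median score of a list were left out, the covered share was 0.827% in place of 4.90% for the complex, 1.00% in place of 6.50% for Ubx and 4.97% in place of 19.9% for abd-A. The same choice put the complex at percentile 7.99 in place of 19.3, and left 3 replicate clusters, of which 0% overlapped the other list, in place of 44.4% of 18; the choice itself leaves fewer clusters. In the combined list the share of the complex was 22.4% and its percentile 51.3, on the other side of the median window from the replicates. This crossing was counted as moved, not as reversed. By number of clusters the percentile of the complex in the replicates was 39.2, and the cause of these changes was not tested. With 1 replicate left out, the range was 3.84% to 5.97% for the complex, 5.00% to 8.00% for Ubx, 15.7% to 24.1% for abd-A and 13.5 to 25.1 for the percentile; such values cannot leave 1 SD of a mean of 2 and say nothing about robustness. Abd-B was at 0% under its 5 alternatives. The widening by 2 kb could not reach a cluster either, since the nearest of any list lay 8.31 kb beyond the span. These 5, and the values above with 1 replicate left out, count among the 23 but say nothing about stability. No paired analysis was possible because the input libraries have no values among the files used here. Unknown depth limits every statement on places without a cluster.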

Other observations

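One replicate cluster of the complex had no counterpart in the combined list. It belonged to replicate 1, ran from 12618862 to 12620186 between Ubx and abd-A, and lay between combined clusters that ended at 12617970 and began at 12620368, so that 891 and 181 bp separated it from them. In the rest of 3R 899 of 907 clusters of replicate 1 had a combined counterpart (99.1%, with a 95% exact interval from 98.3 to 99.6).

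The spacing of clusters in the complex differed between the replicate lists and the combined list. The median distance between neighbouring clusters came to 10720 bp in replicate 1, against 5218 bp over all of 3R. In replicate 2 it came to 17193 bp, against 5108 bp. In the combined list it was 2035 bp, against 3195 bp over 3R, and 14 of its 39 distances in the complex (35.9%) were under 1 kb, close to the 483 of 1609 (30.02%) over 3R. In the replicates 0 of 10 and 1 of 6 distances in the complex were under 1 kb, against 23.9% and 24.3% over 3R. Distances were not measured in windows of the length of the complex, so how common such spacing is on 3R was not tested.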
